A study of Mus musculus with 18 samples.

Results

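The chemokine genes described here were followed in NIH 3T3 mouse embryonic fibroblasts with an intact or a disrupted LINC complex. They were the 9 chemokine ligand genes Cxcl12, Cxcl1, Cxcl5, Ccl2, Ccl7, Ccl8, Ccl9, Cx3cl1 and Cxcl16, and Ackr3, an atypical receptor that binds CXCL12. These 10 of the 22019 genes in the normalized expression table were taken by symbol, and the set was built around Cxcl12 because its values had been seen to differ between SUN1L and KDEL libraries. The SUN1L against KDEL differences are therefore given below as a description with no test for any of the 10 genes, and so are the Cxcl12 differences between inhibitor-treated and untreated KDEL cells, which use the same KDEL libraries.

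All cells carried a doxycycline-controlled retroviral construct and were induced with 1 µg/ml doxycycline for 48 hr on fibronectin-coated polyacrylamide gels that were soft (1 kPa) or stiff (308 kPa). SUN1L is the lumenal domain of the inner nuclear membrane protein SUN1, with a signal sequence, an HA tag and a KDEL retrieval signal, and it acts as a dominant negative against the LINC complex, which couples the nucleus to the cytoskeleton. The control construct, KDEL, is GFP with the same signal sequence and retrieval signal. The cells were drug-selected pools, and only the KDEL pool was further enriched by fluorescence sorting, so the 2 constructs also differ in how their cells were selected. The 6 groups were KDEL and SUN1L cells on 1 kPa, KDEL and SUN1L cells on 308 kPa, KDEL cells on 308 kPa with 25 µM of the small-molecule inhibitor Y27, and KDEL cells on 308 kPa with 10 µM blebbistatin (an inhibitor of non-muscle myosin II). Each group had 3 libraries of polyadenylated RNA, named here by the laboratory numbers in their titles, which fall into 3 series (3 to 12, 15 to 24 and 27 to 36) with 1 library of every group in each; no source used here says what a series shares.

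Chemokines are small secreted or membrane-bound proteins that steer leukocytes and progenitor cells through G protein-coupled receptors, and fibroblasts are a main source of several of them. CXCL12 acts through CXCR4, retains haematopoietic cells in the marrow and is scavenged by ACKR3. CXCL1 and CXCL5 attract neutrophils through CXCR2, CCL2 and CCL7 attract monocytes through CCR2, and CX3CL1 and CXCL16 are made as membrane proteins that ADAM10 and ADAM17 can shed.

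Some libraries need to be named before the results. Library 34 was placed among the blebbistatin libraries by its characteristics, but its source name says Y27, its construct is an empty vector and not GFP-KDEL, and its column is headed by the number 35, so blebbistatin differences are given with and without it. Libraries 3, 7 and 8 stood apart in 12 G2/M genes, with a mean log2(signal + 1) of 8.53 to 9.14 against 11.5 to 12.3 in the other 15 libraries. Sun1, which reads both the endogenous gene and the construct, was at 38452 to 82617 in the 6 SUN1L libraries and 2785 to 3799 in the other 12. Of 10 fibroblast markers, all but Fap were abundant in every library (Fn1, 135350 to 477571), and Fap was above the lowest value of the table, 1, in 1 library. Of the markers of other cell types, Ptprc, Epcam, Cldn5 and Krt18 were at 11.7 or below, whereas Cd14 (80.5 to 401), Tek (72.3 to 3928) and Cdh1 (88.0 to 311) were detected in all 18. Values are the deposited normalized signals. Relating signal to reads through the most frequent value above 1, taken as 1 read pair, gave estimated depths of 12670000 to 19460000 read pairs, and 1 read pair was then worth 1.70 to 2.49 units of signal.

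To place the genes, the bases before the start of 3 of them are shown: Cxcl12 and Cx3cl1, whose values were lower in SUN1L than in KDEL cells in all series on both gels, and Cxcl1, which was not. RefSeq promoters (GRCm38.p6) were found for 6 of the 10 genes. The 250 bases before the start are given 5′ to 3′ on the plus strand, at chr6:117168285-117168534 for Cxcl12, chr8:94771930-94772179 for Cx3cl1 and chr5:90890995-90891244 for Cxcl1, with matches to the NF-kB motif and to TATAAA in capitals.
Cxcl12: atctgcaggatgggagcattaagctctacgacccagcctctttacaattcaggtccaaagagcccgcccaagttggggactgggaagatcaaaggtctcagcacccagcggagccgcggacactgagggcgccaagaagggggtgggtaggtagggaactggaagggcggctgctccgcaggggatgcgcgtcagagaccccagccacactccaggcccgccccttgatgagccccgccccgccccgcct
Cx3cl1: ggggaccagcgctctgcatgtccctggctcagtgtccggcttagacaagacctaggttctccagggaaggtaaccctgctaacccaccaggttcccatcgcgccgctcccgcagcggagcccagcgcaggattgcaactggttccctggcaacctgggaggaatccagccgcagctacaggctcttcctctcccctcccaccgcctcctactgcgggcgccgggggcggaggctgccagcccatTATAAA
Cxcl1: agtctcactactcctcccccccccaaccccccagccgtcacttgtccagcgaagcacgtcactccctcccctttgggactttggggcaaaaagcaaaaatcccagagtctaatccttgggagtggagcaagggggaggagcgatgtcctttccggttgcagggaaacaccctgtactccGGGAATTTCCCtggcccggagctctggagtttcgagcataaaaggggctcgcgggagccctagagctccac
The RefSeq start is that of the table's gene for Cxcl12, 4 bases after it for Cxcl1 and 171 bases after it for Cx3cl1, so part of the Cx3cl1 stretch lies inside the gene as the table gives it. Both strands of the 300 bases around the start, the 250 shown and 50 after, were searched. The NF-kB motif matched in Cxcl1, where overlapping matches on the 2 strands began 71 and 70 bases before the start, and it was held by 8.46% of 32851 promoters. TATAAA matched in Cx3cl1 and was held by 13.6% of promoters. Neither motif, nor TGANTCA (AP-1, 7.81% of promoters), matched in Cxcl12. Among the promoters not shown, Ccl9 matched the NF-kB motif, TATAAA and TGANTCA, and Ccl8 and Ackr3 matched TATAAA. The GC content was 64.7% in both Cxcl12 and Cx3cl1 and 58.7% in Cxcl1, against a median of 52.7% over all promoters.

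Cxcl12 (ENSMUSG00000061353, chr6:117168535-117181367, plus strand, GRCm38) was lower in SUN1L than in KDEL cells on both gels. On 1 kPa its signal was 1072, 755 and 461 in KDEL libraries 4, 16 and 28 and 362, 158 and 140 in SUN1L libraries 3, 15 and 27. On 308 kPa it was 735, 533 and 514 in KDEL libraries 8, 20 and 32 and 167, 162 and 173 in SUN1L libraries 7, 19 and 31. All 6 SUN1L libraries thus lay below all 6 untreated KDEL libraries, and the lowest KDEL library was 1.28 times the highest SUN1L library.

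The mean was 678 ± 228 (SD, n = 6) in untreated KDEL and 194 ± 83.2 (SD, n = 6) in SUN1L cells, a ratio of 3.50. The SUN1L minus KDEL difference in log2(signal + 1) was -1.84 on 1 kPa and -1.80 on 308 kPa (SE 0.37 for each). Within the 3 series, Cxcl12 was 2.96, 4.77 and 3.29 times as high in KDEL as in SUN1L cells on 1 kPa and 4.41, 3.30 and 2.96 times as high on 308 kPa. Without libraries 3, 7 and 8 the differences were -2.27 and -1.64. Of the 16021 genes tested, 85 (0.531%) had all 6 SUN1L libraries below all 6 untreated KDEL libraries; since Cxcl12 was chosen on this contrast, that share only describes how common the pattern is. They also lay below all 11 GFP-KDEL libraries with or without inhibitor, as for 63 genes (0.393%). With limma at the study's thresholds (2-fold, adjusted p under 0.05), 14 (0.0874%) of the genes tested were called on 1 kPa and 10 (0.0624%) on 308 kPa. The study applied these thresholds to p-values from z-scores, so its gene counts are not comparable with these.

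**Figure D1:**
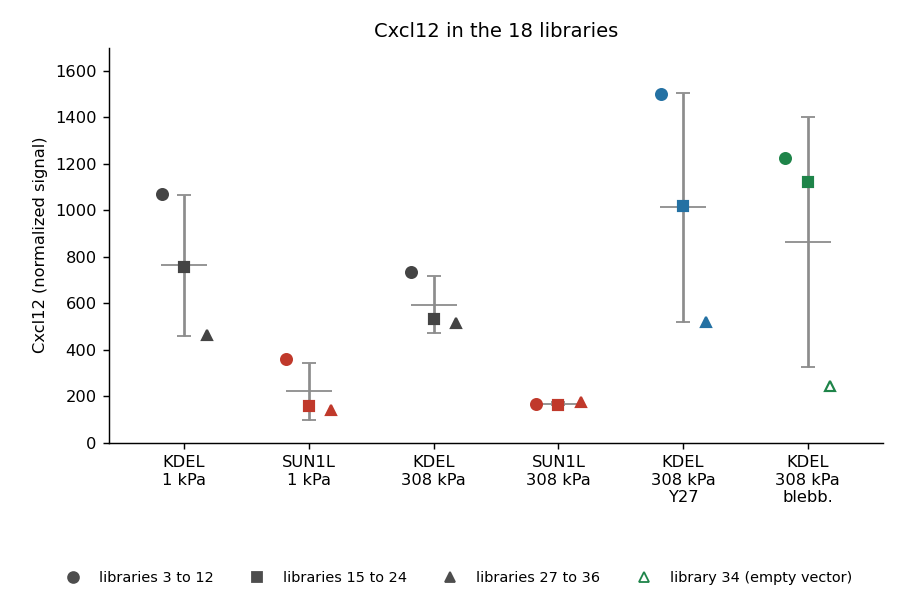
Normalized Cxcl12 signal (linear axis from 0) in the 6 groups; each point is 1 library, its shape gives the series of library numbers, and grey bars are the mean ± SD of 3 libraries. The 6 SUN1L points lie between 140 and 362, below every GFP-KDEL point. The open triangle is library 34, with an empty vector, at 243. It is drawn in the blebbistatin group and counted in its mean and SD.

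In bulk RNA, fewer cells that make a transcript and less of it per cell cannot be told apart. The summed levels of 8 macrophage markers overlapped between the constructs (341 to 669 in SUN1L and 542 to 576 in KDEL cells on 1 kPa; 354 to 924 and 274 to 738 on 308 kPa), and so did those of 10 fibroblast markers (596825 to 729703 and 586551 to 745565 on 1 kPa; 552623 to 735942 and 570119 to 725593 on 308 kPa). The sums of endothelial, adipocyte and epithelial markers overlapped as well, at 389 to 984 in SUN1L and 363 to 609 in KDEL cells on 1 kPa and 357 to 1167 and 392.2 to 747 on 308 kPa for the endothelial ones. Over these marker lists, only Vwf and Csf1r had an unadjusted limma p under 0.05 between the constructs, and neither was called. Vwf, an endothelial gene, was higher in SUN1L cells on 1 kPa (1.62 in log2(signal + 1)). Csf1r, a macrophage receptor gene, was higher on 308 kPa (1.75). Of the tested endothelial markers, 4 ran higher and 1 lower in SUN1L cells on each gel. Of the tested macrophage markers, 4 ran higher and 3 lower on each gel. The part of these markers in the Cxcl12 difference was not tested.

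Substrate rigidity was not used to choose the genes and could be tested. Cxcl12 differed between 308 and 1 kPa by -0.30 on the log2 scale in KDEL cells (95% interval -1.12 to 0.53, limma adjusted p = 1) and by -0.26 in SUN1L cells (-1.09 to 0.57, adjusted p = 1). The difference between these rigidity effects, the interaction, was 0.04 (-1.13 to 1.21, adjusted p = 1). No rigidity effect on Cxcl12 was therefore detectable, and the interval still holds more than a 2-fold decrease in either cell line. These intervals come from a fit with no term for series, although Cxcl12 also differed between series. Over all alternatives, a block on series among them, the smallest limma adjusted p was 0.80 in KDEL and 0.94 in SUN1L cells.

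Y27 and blebbistatin libraries held some of the highest Cxcl12 values. The signal was 1503, 1018 and 518 in Y27 libraries 12, 24 and 36, and 1225, 1123 and 243 in blebbistatin libraries 10, 22 and 34. In each series the Y27 library was at or above the untreated library, by 2.04, 1.91 and 1.01 times. Library 34, the empty-vector library, lay below all 11 GFP-KDEL libraries and inside the SUN1L range. The difference from untreated KDEL cells in log2(signal + 1) was 0.66 for Y27 and 0.24 for blebbistatin, or 1.00 for blebbistatin without library 34. Without library 10 the blebbistatin difference was -0.16 and without library 22 it was -0.10, so its direction turned on which library was left out. Summed endothelial and epithelial markers were higher with Y27 than in untreated cells, with no overlap. The endothelial sum was 1084 to 3992 against 392.2 to 747, and the epithelial sum 372 to 1170 against 247 to 347. Of the single markers, Tek reached 3928 and Krt14 872 over the 18 libraries. Tek differed by 2.85 in log2(signal + 1) with Y27 (limma adjusted p = 0.74). Of the tested endothelial markers 3 were higher and 2 lower with Y27, and of the epithelial ones 2 were higher and 2 lower. The fibroblast sum was 730275 to 894341 with Y27 against 570119 to 725593, while the macrophage and adipocyte sums overlapped, and the part of these in any Y27 difference given here was not tested. With blebbistatin all 5 sums overlapped those of untreated cells. Blebbistatin and Y27, compared directly, differed by -0.41 (95% interval -1.90 to 1.07, limma adjusted p = 1), and by 0.34 without library 34, so the direction of that difference rested on library 34.

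The values of Cxcl12 also differed between series. Its median over the 6 libraries of a series was 904 in libraries 3 to 12, 644 in libraries 15 to 24 and 352 in libraries 27 to 36, and the ordering by construct held within each. Over the 18 libraries and the 8010 more abundant genes, the genes whose log2(signal + 1) followed Cxcl12 most closely were Ablim1, which encodes an actin-binding LIM protein (Pearson r = 0.90), C1ra, a complement protease (0.87), Zfp503, a zinc finger protein (0.86), Xbp1, a transcription factor of the unfolded protein response (0.85), and Pawr (0.85). Those that ran most opposite to it were Ppp4r1 (-0.85), Mtcl1 (-0.84) and Tmem63b (-0.83). The 18 libraries share construct groups and series, so these are descriptions, given with no p. Among the other 8 tested genes of the set, Cx3cl1 had the highest r with Cxcl12 (0.56) and Ackr3 the lowest (-0.32).

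Ackr3 (ENSMUSG00000044337, chr1:90203980-90216751), the scavenging receptor for CXCL12, was well expressed and overlapped between all groups. It was at 1471, 1698 and 2037 in KDEL and 1252, 1826 and 1974 in SUN1L libraries on 1 kPa. On 308 kPa it was at 807, 1665 and 2085 in KDEL and 967, 1921 and 1968 in SUN1L libraries. The SUN1L minus KDEL difference was -0.06 on 1 kPa and 0.13 on 308 kPa in log2(signal + 1), and both changed sign when single libraries were left out. Its levels ran with the series: 807 to 1471 in libraries 3 to 12, 1402 to 2462 in libraries 15 to 24 and 1968 to 3251 in libraries 27 to 36. With Y27 it was at 1184, 2462 and 2166 and with blebbistatin at 939, 1402 and 3251, overlapping the untreated libraries; the blebbistatin difference was 0.20 with library 34 and -0.30 without it. Cxcr4, the signalling receptor for CXCL12, was at the lowest value in all 18 libraries. Dpp4, a protease that inactivates CXCL12, was above the lowest value in 1 library, while the matrix protease gene Mmp2 was at 10102 to 26727.

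Cxcl1 and Cxcl5, the neutrophil-attracting chemokines, were well expressed and varied widely between the libraries of a group. Cxcl1 (ENSMUSG00000029380, chr5:90891241-90893115) was at 557, 442 and 241 in KDEL and 302, 1063 and 133 in SUN1L libraries on 1 kPa. On 308 kPa it was at 87.2, 397 and 488 in KDEL and 325, 1135 and 222 in SUN1L libraries. The SUN1L values span those of KDEL cells on 1 kPa and overlap them on 308 kPa, with differences of -0.15 and 0.76 in log2(signal + 1). On 1 kPa the value ranged from -0.95 to 0.54 as single libraries were dropped, and without library 8 the difference on 308 kPa was -0.02.

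Cxcl1 was higher with blebbistatin than in untreated KDEL cells in all series, at 795, 914 and 2034 in libraries 10, 22 and 34. The 3 blebbistatin libraries all lay above the 3 untreated ones, as they did for 587 (3.66%) of the genes tested; without library 34 the remaining 2 lay above the 3 untreated ones for 1153 genes (7.20%). The difference was 2.14 in log2(signal + 1) (SE 0.78, 95% interval 0.35 to 3.94), with an unadjusted p of 0.0252 and a limma adjusted p of 0.89, and so it did not pass the test. Without library 34 it was 1.73 (adjusted p = 1), and without library 8, the lowest of all 18 at 87.2, it was 1.37 (adjusted p = 1). With Y27 Cxcl1 was at 1261, 702 and 285, which overlapped the untreated libraries, and the difference of 1.30 (-0.50 to 3.09) had an adjusted p of 0.84. Both inhibitors are compared with the same untreated libraries.

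Cxcl5 (ENSMUSG00000029371, chr5:90759299-90761625) was at 2149, 1383 and 1441 in KDEL and 899, 1245 and 541 in SUN1L libraries on 1 kPa, where the 3 SUN1L libraries lay below the 3 KDEL libraries. On 308 kPa it was at 333, 1306 and 2355 in KDEL and 1360, 1766 and 833 in SUN1L libraries, which overlapped. The differences were -0.94 and 0.32 in log2(signal + 1), and the interaction of construct and rigidity, 1.26 (-0.63 to 3.15), had a limma adjusted p of 1. Library 8 was the lowest of the 18 for Cxcl5 as for Cxcl1; without it the rigidity difference in KDEL cells changed from -0.69 to 0.11 for Cxcl5 and from -0.60 to 0.17 for Cxcl1. With Y27 Cxcl5 was at 2743, 1373 and 889 and with blebbistatin at 2082, 1517 and 1919, overlapping the untreated libraries, and the blebbistatin difference of 0.85 was 0.82 without library 34. Cxcr2, their receptor, was at 1 to 10.5, and the related Cxcr1 at 1 to 16.8.

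Ccl2, Ccl7 and Ccl8, chemokine genes that lie near one another on chromosome 11, were close to the lowest value, at no more than 2 read pairs in any library but 34. Ccl2 (chr11:82035571-82037453) was above 1 in 10 libraries, at up to 4.97 in all but library 34, where it reached 28.05. Ccl7 (chr11:82045712-82047525) was above 1 in 9 libraries, and again library 34 was the highest, at 11.1. Ccl8 (chr11:82115185-82116799) was above 1 only in SUN1L libraries 3 (2.33) and 15 (1.70), about the worth of 1 read pair, and did not enter the tests. The blebbistatin difference was 1.29 for Ccl2 and 0.49 for Ccl7, or 0.22 and -0.38 without library 34. With Y27 Ccl7 was at 3.52, 2.10 and 2.15, all above the untreated 1, 1.97 and 1.96, as for 4.95% of the genes tested, with a difference of 0.44 (-1.07 to 1.96, limma adjusted p = 0.90). Construct differences were not tested, and none of the gel and inhibitor differences of Ccl2 and Ccl7 passed the test. Library 34 exceeded every other library for 1311 (8.18%) of the genes tested, among them Cxcl1, Ccl2, Ccl7 and Ackr3, and also Nfkbia (4105), the NF-kB-induced inhibitor, and Tnfaip3 (904), both picked once their values were known. Over the whole lists library 34 lay inside the range of the other libraries. Its mean log2(signal + 1) was 6.74 over NF-kB targets (6.32 to 7.05 in the others). Over NF-kB subunits, inhibitors and kinases it was 9.64 (9.31 to 9.86). Within its own series, libraries 27 to 36, library 34 was the highest on both lists (6.32 to 6.70 and 9.31 to 9.52 in the others). Ccr2, the receptor of CCL2 and CCL7, was at the lowest value in all libraries.

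Ccl9 (ENSMUSG00000019122, chr11:83572919-83578636, minus strand), a ligand of CCR1, was well expressed. It was at 508, 269 and 414 in KDEL and 147, 256 and 265 in SUN1L libraries on 1 kPa, where the SUN1L libraries lay below the KDEL libraries. On 308 kPa it was at 247, 270 and 432 in KDEL and 151, 375 and 366 in SUN1L libraries, which overlapped. With Y27 it was at 658, 321 and 568 and with blebbistatin at 625, 378 and 602, above the untreated library of the same series in each case. Neither difference from untreated cells passed the test (Y27, 0.68, -0.11 to 1.48, limma adjusted p = 0.81; blebbistatin, 0.76, -0.03 to 1.56, adjusted p = 0.89, and 0.66 without library 34). Ccr1 was above the lowest value in 4 libraries, at up to 3.93.

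Cx3cl1 (ENSMUSG00000031778, chr8:94772009-94782423), the gene for fractalkine, was lower in SUN1L than in KDEL cells. On 1 kPa it was at 107, 145 and 61.0 in KDEL and 46.3, 35.7 and 21.4 in SUN1L libraries, which did not overlap. On 308 kPa it was at 58.4, 86.5 and 29.4 in KDEL and 48.9, 29.8 and 4.28 in SUN1L libraries, which did. The ratio of KDEL to SUN1L was above 1 in every series, at 2.31, 4.07 and 2.85 on 1 kPa and at 1.19, 2.90 and 6.87 on 308 kPa.

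The Cx3cl1 difference was -1.55 on 1 kPa and -1.43 on 308 kPa in log2(signal + 1) (SE 0.75 for each). The value on 308 kPa leaned on library 31, whose 4.28 is 2 read pairs, and was -0.46 without it. Cx3cl1 was also lower on 308 than on 1 kPa in KDEL cells in all series, by -0.88 (-2.54 to 0.79, limma adjusted p = 1). In SUN1L cells the difference was -0.75 (-2.42 to 0.91, adjusted p = 1). These intervals come from a fit with no term for series, so they also hold the spread between series. Within the 3 series the KDEL differences were -0.86, -0.74 and -1.03. Over all alternatives, a block on series among them, the smallest limma adjusted p was 0.78 in KDEL and 0.93 in SUN1L cells. With Y27 it was at 65.1, 21.05 and 35.3, and with blebbistatin at 97.4, 58.5 and 42.0, both overlapping the untreated libraries, and the blebbistatin difference of 0.22 was 0.50 without library 34. Its receptor Cx3cr1 was at 1 to 6.64.

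Cxcl16 (ENSMUSG00000018920, chr11:70453983-70459984, minus strand) was low and varied little. It was at 20.6, 29.2 and 30.0 in KDEL and 36.3, 20.2 and 31.7 in SUN1L libraries on 1 kPa, and at 22.8, 20.5 and 17.4 and at 29.2, 34.5 and 16.99 on 308 kPa, with overlap on each gel. With Y27 it was at 18.4, 29.1 and 28.01 and with blebbistatin at 22.1, 49.6 and 33.4. The largest of its tested differences was 0.70 with blebbistatin (-0.08 to 1.48, limma adjusted p = 0.89), and the same to 2 decimals without library 34. The sheddase genes Adam10 (3210 to 6815) and Adam17 (2419 to 4203) were abundant in every library, and Cxcr6, its receptor, was at 1 to 21.1.

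**Figure D2:**
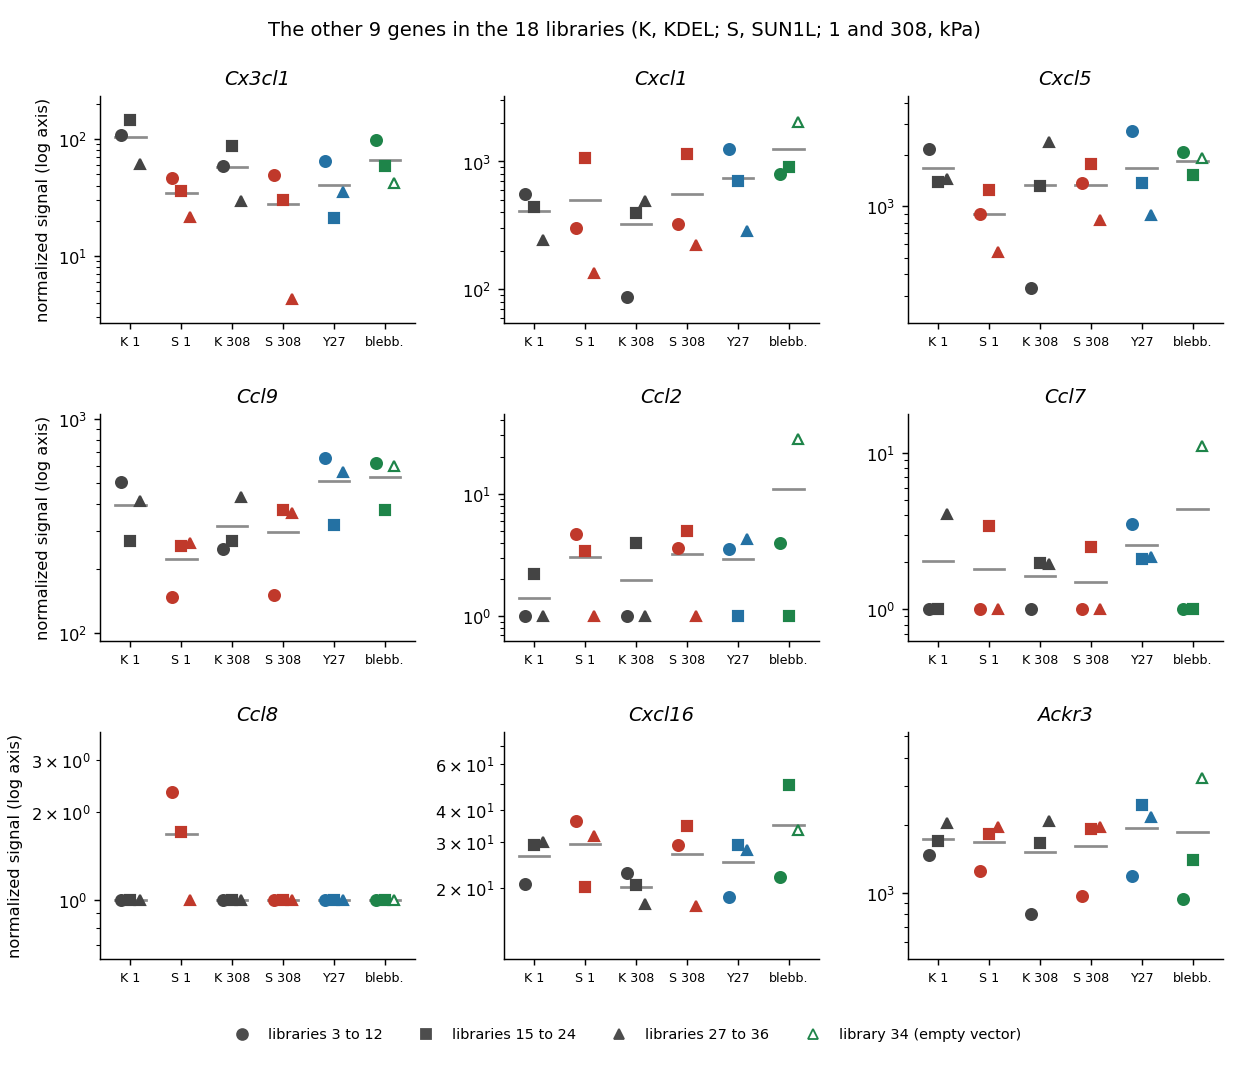
Normalized signal (log axis) of the other 9 genes in the 6 groups; points are libraries, shapes give the series of library numbers and grey lines are the means of 3 libraries. Cx3cl1 runs lower in SUN1L than in KDEL libraries, Ackr3 follows the series, and library 34 (open triangle) is the highest for Cxcl1, Ccl2, Ccl7 and Ackr3.

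Side by side, 4 of the 9 tested genes (Cxcl12, Cx3cl1, Cxcl5 and Ccl9) had all 3 SUN1L libraries below all 3 KDEL libraries on 1 kPa, where 7.86% of the genes tested did, and Cxcl12 alone did on 308 kPa, where 2.33% did. These counts use the contrast on which the set was built, and nothing is read from them. The median SUN1L minus KDEL difference over the 9 genes was -0.15 on 1 kPa and 0.13 on 308 kPa in log2(signal + 1), against -0.01 and -0.03 over all genes tested. Cxcl12 and Cx3cl1 were lower in SUN1L cells in all 3 series on both gels, Cxcl5 and Ccl9 were lower in all 3 on 1 kPa and mixed on 308 kPa, and Cxcl1 was mixed on both gels.

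**Figure D3:**
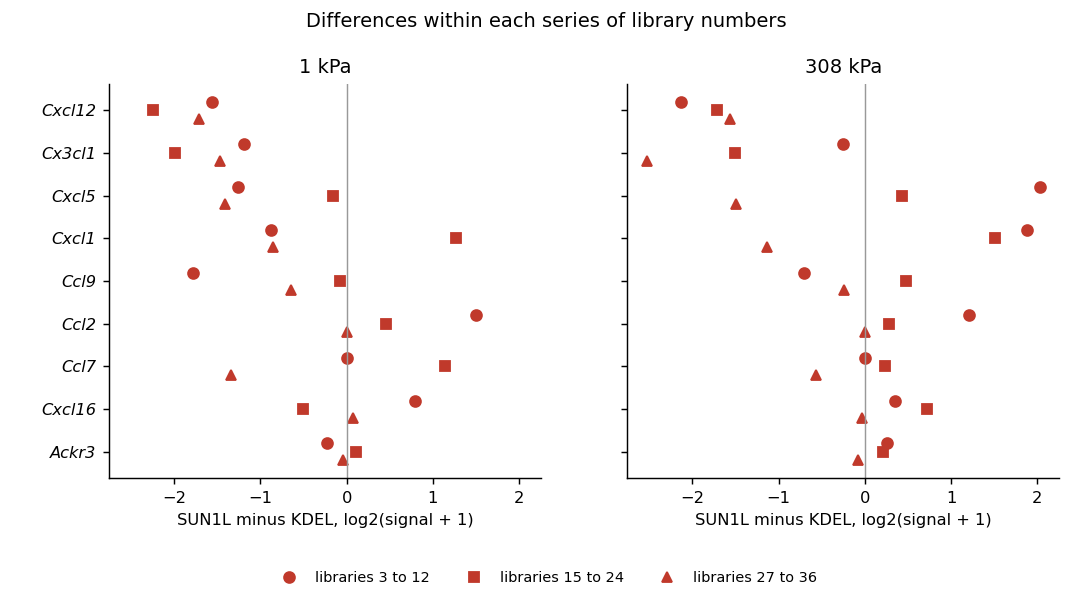
SUN1L minus KDEL difference in log2(signal + 1) within each series of library numbers (left, soft gel; right, stiff gel) for the 9 genes tested; each point is 1 pair of libraries. All points of Cxcl12 and Cx3cl1 lie to the left of 0, and those of Cxcl1 lie on both sides on each gel.

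None of the tested differences of the set was called for rigidity in KDEL cells, rigidity in SUN1L cells, their interaction, each inhibitor or blebbistatin against Y27. Cxcl12 was not tested against untreated cells for either inhibitor. In each of these comparisons 0 (0%) of all genes tested were called. At an unadjusted p under 0.05, limma gave 219 genes (1.37%) for rigidity in KDEL cells, 310 (1.93%) for rigidity in SUN1L cells, 145 (0.905%) for the interaction, 970 (6.05%) for Y27, 674 (4.21%) for blebbistatin and 453 (2.83%) for blebbistatin against Y27. Without library 34 the counts for blebbistatin were 487 and, against Y27, 371. In this fit, which had no term for series, Cxcl1 with blebbistatin was the only tested difference of the set with an unadjusted limma p under 0.05. Without library 34 its unadjusted p was 0.0894. Ccl7, at 1 in both remaining blebbistatin libraries, then had an unadjusted p of 0.0156 against Y27 (limma adjusted p = 1). The median difference with blebbistatin over the 9 genes was 0.70, against 0.00 over all genes tested, with all 9 higher than in untreated cells. Without library 34 it was 0.66, with Ccl7 and Ackr3 lower. With Y27 the median was 0.44, against 0.01 over all genes tested, with 8 higher. These medians lean on the same 3 untreated libraries, and they include Cxcl12, whose own difference from untreated cells is a description with no test.

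**Figure D4:**
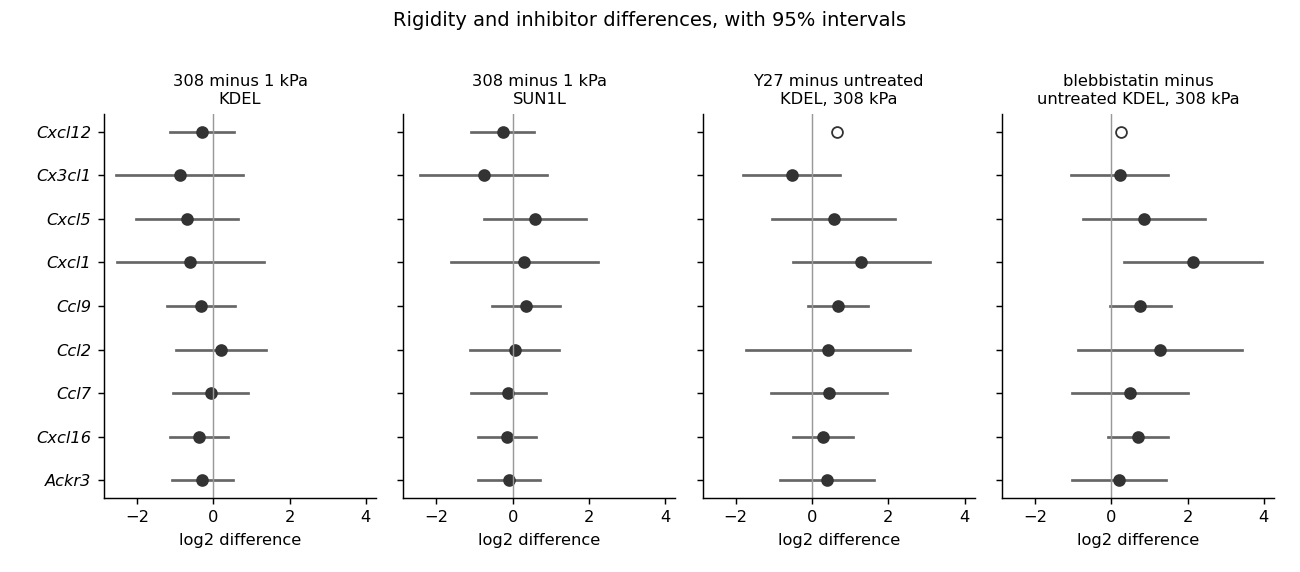
Differences in log2(signal + 1) with 95% intervals from limma for the 9 genes tested, for rigidity in KDEL and in SUN1L cells and for Y27 and blebbistatin in KDEL cells on 308 kPa; open circles for Cxcl12 carry no interval because the untreated libraries were used to choose it. Library 34 is included, and the fit had no term for series. Every interval holds 0 except that of Cxcl1 with blebbistatin, 0.35 to 3.94, whose unadjusted p was 0.0894 without library 34.

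Levels between genes can be set side by side only per length. Divided by the longest coding transcript, the mean signal per kb in KDEL cells on 308 kPa was 804 for Cxcl5, 496 for Ackr3, 340 for Cxcl1, 106 for Cxcl12, 105 for Ccl9, 17.6 for Cx3cl1 and 7.49 for Cxcl16. Cxcl12 and Ccl9 stand next to each other in that order and do not differ beyond the spread of their libraries. That order depends on the isoform for 5 of the 7 genes: by the shortest coding transcript Ccl9 would be at 2704 per kb, Cxcl5 at 879, Cxcl12 at 316, Cx3cl1 at 134.5 and Cxcl16 at 15.96, while Ackr3 and Cxcl1 have a single coding transcript. The Ccl9 value rests on a transcript entry of only 117 bases, against 3006 for its longest, so no rank is read from it. For Cx3cl1 the shortest entry has 432 bases and the longest 3311.

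The rest of the chemokine system was read from lists of genes. Of 29 other chemokine ligand genes, 12 were tested and 0 were called in any comparison. Those above the lowest value in all 18 libraries were Ccl25 (350 to 716), Cxcl13 (102 to 392.02), Ccl27a (37.9 to 129), Ppbp (13.5 to 98.2) and Ccl28 (10.7 to 61.7). Cxcl10, an interferon-induced chemokine, was at 1 to 22.1. Of 22 chemokine receptors other than Ackr3, 15 were tested and 0 were called; the atypical receptor Ackr4 (28.8 to 76.3) had the highest median. Cxcr6 had the smallest p of the receptors of these ligands for rigidity in SUN1L cells (1.18, SE 0.37, unadjusted p = 0.00821, limma adjusted p = 1). Its signal there was only a few read pairs, at 1.95 to 3.58 in SUN1L libraries on 1 kPa and 5.16 to 10.7 on 308 kPa.

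Genes that cut, shed or present chemokines, and NF-kB genes, did not pass the test either. Of 14 processing and presentation genes 13 were tested, and their median SUN1L minus KDEL difference was -0.10 on 1 kPa and -0.09 on 308 kPa. Of 14 genes for NF-kB subunits, inhibitors and kinases all were tested, with medians of 0.07 and 0.02, and the 14 NF-kB target genes had medians of -0.12 and -0.15. None of these was called in any comparison. Csf3, a target gene for a granulocyte growth factor, had 1.61 with blebbistatin (SE 0.27, unadjusted p = 0.000406, limma adjusted p = 0.89), at a signal of 6.47 to 8.06 against 1 to 2.16 in untreated cells; without library 34 it was 1.66 (adjusted p = 1).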

How the data were processed

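Polyadenylated RNA of 18 cultures (6 groups of 3, called biological replicates in the study's methods) was sequenced. The authors mapped reads with TopHat2 2.0 to mm9, per the submitters' processing notes, which also name FastQC and SAMtools; they removed low-quality and duplicate reads and deposited TMM-normalized signal from AvadisNGS, on a linear scale with a lowest value of 1. The gene coordinates in the table are those of GRCm38. Between 30.3% and 35.1% of values under 200 were whole multiples of 1 read pair (within 0.01), so counts could not be recovered and no count test was run. The 16021 of 22019 genes exceeding the lowest value in 3 or more libraries were fitted as log2(signal + 1) with limma 3.58.1 in R 4.3.3 (trend, Benjamini-Hochberg adjustment), with 12 libraries for construct and rigidity and 9 for inhibitors. A pseudocount of 1 understates differences of low genes. The 10 genes, the lists and the tests were chosen with earlier results of these data known. Genes named were the 10, the receptors of these ligands that were tested, listed genes called in a comparison, Sun1, and the 5 genes most and 3 least correlated with Cxcl12; further listed genes were picked once their values were known. Alternatives changed the filter, pseudocount, normalization, prior, libraries and a block on series.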

Additional observations from a re-analysis of the deposited data

How the results depend on the processing

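The SUN1L minus KDEL difference of Cxcl12 kept its sign in all alternatives, between -2.27 and -1.55 on 1 kPa and between -1.90 and -1.64 on 308 kPa. The number of all genes called, 14 on 1 kPa and 10 on 308 kPa, was between 1 and 17 and between 2 and 13 over the alternatives: it fell to 1 and 2 without libraries 3 to 12, to 7 and 5 without libraries 3, 7 and 8, and on 1 kPa to 8 without library 4. In the other comparisons 0 to 2 genes were called. The labels number no replicates, but a replicate block on the 3 series of library numbers could be fitted: 17 and 12 genes were called for construct, 0 in the other comparisons, and 333 to 1683 genes had an unadjusted p under 0.05 in the latter, against 145 to 970 without it. Deviations from the group means correlated at 0.066 to 0.67 over genes in the 45 pairs of libraries of one series, and all 18 libraries correlated best with one of their own series. Of 52 tested differences of these genes, 32 changed sign in 85 of 1057 alternative values, and none passed the threshold (smallest adjusted p = 0.32); the cause was not tested. Ccl2, Ccl7 and Ccl8 reached at most 2 read pairs outside library 34, which limits what can be seen of them.

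Among the untested differences, those of changed sign ranged over all alternatives for SUN1L against KDEL on 1 kPa from -0.95 to 0.54 for Cxcl1, -0.45 to 0.38 for Ccl7, -0.22 to 0.36 for Cxcl16 and -0.19 to 0.14 for Ackr3; on 308 kPa from -0.018 to 1.24 for Cxcl1, -0.53 to 0.93 for Cxcl5, -0.38 to 0.022 for Ccl7, -0.38 to 0.27 for Ccl9 and -0.27 to 0.46 for Ackr3; and for blebbistatin from -0.16 to 1.00 for Cxcl12. The Cx3cl1 difference on 308 kPa ranged from -2.08 to -0.46.

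Leaving out 1 library at a time changed the sign of these tested differences, with the lowest and highest values given. The range for rigidity in KDEL cells was -1.06 to 0.17 for Cxcl1, -1.30 to 0.11 for Cxcl5, -0.29 to 0.38 for Ccl7, -0.57 to 0.12 for Ackr3 and -0.23 to 0.43 for Ccl2. The range for rigidity in SUN1L cells was -0.52 to 0.17 for Cxcl12, -0.38 to 0.15 for Cxcl16, -0.39 to 0.51 for Ccl2, -0.38 to 0.27 for Ccl7, -0.30 to 0.23 for Ackr3, -0.38 to 1.11 for Cxcl1 and -1.41 to 0.21 for Cx3cl1. The range for the interaction was -0.60 to 0.31 for Ccl2, -0.22 to 0.52 for Ackr3, -0.25 to 0.46 for Cxcl12, -0.49 to 0.34 for Ccl7, -0.53 to 1.09 for Cx3cl1 and -0.012 to 0.52 for Cxcl16. The range for Y27 was -0.23 to 1.18 for Cxcl5 and -0.011 to 0.71 for Ackr3. The range for blebbistatin was -0.30 to 0.60 for Ackr3, -0.19 to 0.57 for Cx3cl1 and -0.38 to 0.92 for Ccl7. The range for blebbistatin against Y27 was -0.23 to 0.31 for Ccl9, -0.69 to 0.21 for Ackr3, -0.82 to 0.47 for Ccl7, -0.83 to 0.34 for Cxcl12, -0.20 to 1.73 for Ccl2 and -0.090 to 0.72 for Cxcl5. Without libraries 3 to 12 the differences of changed sign were 0.43 for Cxcl1, 0.31 for Cxcl5, 0.033 for Ccl9, 0.0024 for Ackr3 for rigidity in KDEL cells, 0.17 for Cxcl12, 0.035 for Ackr3 for rigidity in SUN1L cells, -0.016 for Cxcl1, -0.29 for Cx3cl1 for the interaction, -0.67 for Cxcl5 for Y27, -0.039 for Cxcl5, -0.028 for Cx3cl1 for blebbistatin. Without libraries 3, 7 and 8, an alternative chosen after seeing the data, the differences of changed sign were 0.17 for Cxcl1, 0.11 for Cxcl5, 0.12 for Ccl7, 0.12 for Ackr3 for rigidity in KDEL cells, 0.17 for Cxcl12, 0.035 for Ackr3 for rigidity in SUN1L cells, -0.23 for Cx3cl1, -0.081 for Ackr3 for the interaction, -0.23 for Cxcl5, -0.011 for Ackr3 for Y27, -0.20 for Ackr3 for blebbistatin. With a pseudocount of 8 the difference was 0.0035 for Ccl7 for the interaction. With a pseudocount of 0.1 the difference was -0.14 for Ccl7 for blebbistatin against Y27.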
